A study of Mus musculus with 13 samples.

Results

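The 9 genes Mesp1, Tbx6, Msgn1, Evx1, Cdx1, Cdx2, Hand1, Kdr and Etv2, which regulate or mark the posterior embryo and the early mesoderm, were followed in mouse embryonic stem cells induced to express CTCF S224E. They were chosen by symbol from the 24421 genes of the deposited RNA-seq counts, and all 9 were found in the counts of both replicates, each under the same RefSeq transcript. The cells were F1-2.1, a female ES cell line of the strain CAST/Ei x 129/Sv/Jae, grown with LIF on γ-irradiated MEF feeders and carrying a Tet-on CTCF S224E transgene. In S224E a serine of CTCF is replaced by glutamate, whose charge mimics phosphorylation. The +dox cells had 1 μg/mL doxycycline for 6 days and the −dox cells had none, with 2 biological replicates of polyadenylated RNA in each condition. Both conditions came from 1 clone (A2), kept their endogenous CTCF and carried the same transgene. Cells lacking the transgene were not analysed here in either condition, which means that the action of dox itself and that of S224E cannot be told apart.

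In the gastrulating embryo, epiblast cells that pass through the primitive streak become mesoderm, under Wnt, FGF, Nodal and BMP signals. Mesp1 marks nascent mesoderm, Tbx6 and Msgn1 drive the presomitic mesoderm that forms the somites, and Evx1, Cdx1 and Cdx2 are homeobox genes of the posterior streak and tail bud. Hand1 is a bHLH factor of lateral and extraembryonic mesoderm, Etv2 is an ETS factor that starts the blood and endothelial lineage, and Kdr encodes the VEGF receptor that marks its precursors. Cdx2 and Hand1 are also known from trophoblast. ES cells kept with LIF are pluripotent, and these genes are usually low in them, with some transcripts from cells that begin to differentiate. Counts from a mixed culture cannot tell fewer cells of a type from less RNA per cell.

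The libraries held between 22899107 and 30206085 counted reads, so that 1 read equalled 0.0327 to 0.0444 CPM (counts scaled to the depth of each library, with TMM factors). A level of 0 reads would have allowed up to 0.0982 to 0.133 CPM, the value of 3 reads. The culture was checked against its label with 12 ES cell markers such as Pou5f1 and Nanog, all of which reached a mean of 1 CPM. Their summed level was 7203 and 7966 CPM with dox and 6432 and 6817 CPM without, so both +dox libraries lay above both −dox libraries. In both replicates 8 of the 12 were higher with dox. Tfcp2l1 and Tdgf1 were lower with dox in both, and Nanog and Esrrb differed in direction between replicates. The cause of the higher sum with dox was not tested. Markers of fibroblasts, the cell type of the feeders, were also present, with 19 of 20 averaging 1 CPM or more. Their summed level was 4767 CPM in +dox replicate 1 and 2673, 2218 and 2596 CPM in +dox replicate 2, −dox replicate 1 and −dox replicate 2. The +dox replicate 1 library thus stood apart in these markers.

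The 9 regulators were at low levels in every library. Together they took 738 and 599 reads with dox and 780 and 766 without. Scaled to depth, these were 32.8 and 26.2 CPM with dox and 25.5 and 30.5 CPM without, which overlap. Hand1 was the most abundant by reads, with 954 over the 4 libraries, and Msgn1 the least, with 36. A mean of under 10 reads per library was taken as too few, and under 50 as low. Msgn1 had too few reads, with a mean of 9 per library. The means of Mesp1 (13.5), Tbx6 (23.75), Cdx2 (32.5) and Kdr (42.25) were low, while Cdx1, Etv2, Evx1 and Hand1 had means between 58 and 238.5. Of the 9 genes, 6 reached a mean of 1 CPM over the 4 libraries, and Mesp1, Tbx6 and Msgn1 did not.

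Levels were compared between genes only per length, as CPM per kb of counted exon. On this scale Hand1 was highest, with a mean of 5.18 ± 1.95 CPM per kb (SD over the 4 libraries), followed by Etv2 with 4.98 ± 1.33. The ranges of Hand1 and Etv2 overlapped. Evx1, at 2.37 ± 0.183 CPM per kb, lay below the lowest value of Etv2 and above the highest of Cdx1 (1.33 ± 0.627). The ranges of Cdx1 and the genes after it overlapped each with the next, in the order Msgn1 (0.607), Cdx2 (0.569), Tbx6 (0.551), Mesp1 (0.473) and Kdr (0.306). For comparison, the median level of the 13911 genes averaging 1 CPM or more was 10.2 CPM per kb.

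**Figure D1:**
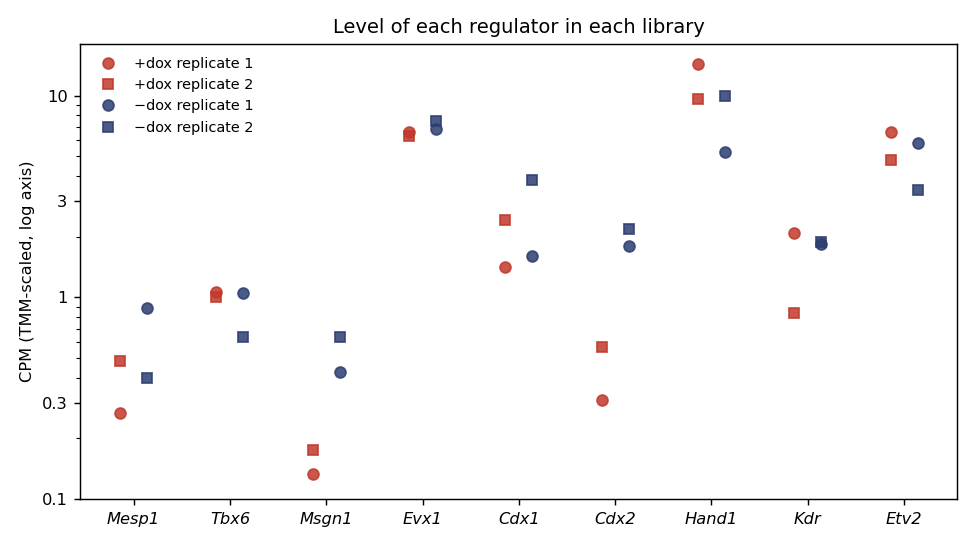
Level of the 9 genes in each library, in CPM on a log axis, with circles for replicate 1, squares for replicate 2, red for +dox and blue for −dox. The red and blue points of Cdx2 and Msgn1 lie well apart, those of Evx1 lie close together without overlap, and those of the other 6 genes overlap.

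Between +dox and −dox cells, 0 of the 9 genes passed an adjusted p-value of 0.01 in edgeR's quasi-likelihood test, where 0.599% of the 20044 genes tested were called (120 genes, 104 lower and 16 higher with dox). DESeq2, the tool of the study's methods, also called 0 of the 9, with 375 calls over all genes (1.87%, and 1.28% in the lower direction), and gave no adjusted p-value for Mesp1, Tbx6 and Msgn1. At an unadjusted p-value under 0.05 edgeR had 3 of the 9, where 17.8% of all genes tested reached this value. Cdx2 and Msgn1 were lower with dox, as were 9.31% of all genes at this value, and Hand1 was higher. Cdx2 came closest to the threshold. In 3 genes, Cdx2, Msgn1 and Evx1, both +dox libraries lay below both −dox libraries. No gene of the 9 had both +dox libraries above both −dox libraries. Over all genes tested, the replicates did not overlap in 23.7% with dox lower and in 23.3% with dox higher. Among the 6 genes averaging 1 CPM or more, the median log2 fold change was -0.25, and 4 of the 6 had a negative value. By replicate, the median of the 6 was 0.06 in replicate 1 and -0.45 in replicate 2. The median of all 13911 such genes was -0.0011. Of those 13911 genes, edgeR called 0.733% lower and 0.108% higher with dox.

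Cdx2 (chr5:148112476-148118825 in mm9, minus strand) is a caudal-type homeobox gene that sets posterior identity and extends the body axis. It had 7 and 13 reads with dox and 55 and 55 without. As levels, these were 0.311 and 0.569 CPM with dox against 1.80 and 2.19 CPM without. Both +dox libraries were low and both −dox libraries high, with no overlap. The +dox mean was 0.440 ± 0.183 CPM (SD, n = 2) and the −dox mean 2.00 ± 0.277 CPM (SD, n = 2). In edgeR's fit the −dox level was 4.48-fold the +dox level. On the log2 scale the change was -2.16 (standard error 0.42, 95% interval -3.08 to -1.25). edgeR's test gave it an adjusted p-value of 0.0211 and DESeq2 one of 0.0426, both above 0.01. At a threshold of 0.05, where edgeR called 2.86% of all genes, Cdx2 was the only one of the 9 called. Among the 7204 genes with a mean of under 50 reads, as in Cdx2, edgeR called 0.0416% at 0.01. Within replicate 1 alone the ratio of +dox to −dox was 0.173 (0.0663 to 0.380) and within replicate 2 it was 0.260 (0.130 to 0.482), where these exact 95% intervals cover counting error only. Without +dox replicate 1, the library with the high fibroblast markers, the log2 fold change was -1.80 and the adjusted p-value of edgeR 0.00712, and without +dox replicate 2 they were -2.66 and 1.72e-04. In these fits the lone +dox library was assumed to vary like the −dox pair, and 5.07% and 4.43% of all genes were called (992 and 877). Cdx2 did not pass without either −dox library (adjusted p-values of 0.550 and 0.670 from edgeR), where 0 genes were called over the whole table. The likelihood ratio test of edgeR called Cdx2 with an adjusted p-value of 3.79e-04, while adjusted deviances gave 0.130 and the filterByExpr filter 0.0637, both above 0.05 too.

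Because Cdx2 is also expressed in trophoblast, 14 trophoblast markers were set beside it. Their summed level was 306 and 326 CPM with dox and 488 and 589 CPM without. The 2 markers that edgeR called were Krt8 (log2 fold change -2.39) and Krt18 (-1.96), keratins that other epithelia and endoderm make too. Their means were 23.7 and 40.7 CPM with dox and 124 and 158 CPM without. The other 12 markers summed to 228 and 275 CPM with dox and 235 and 278 CPM without, so the lower sum with dox rested on Krt8 and Krt18. Most of the sum of these 12 was Tfap2c (means of 145 CPM with dox and 148 without) and Tead4 (54.8 and 61.0). It therefore says little about the rarer markers. Elf5, a defining gene of trophoblast stem cells, had 6, 5, 4 and 1 reads in +dox replicates 1 and 2 and −dox replicates 1 and 2, and Tpbpa and Prl3d1 of later trophoblast had 0 in every library. Krt7, Gata3 and Ascl2 were not called, with log2 fold changes of -1.07, 0.44 and 0.16. In both replicates 5 of the 14 were higher with dox, among them Gcm1 (log2 fold change 0.60, not called) and Elf5 with its few reads. The part of other cell types in the difference of Cdx2 was not tested.

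Cdx1, its paralogue (chr18:61178516-61195853, minus strand), had 1.42 and 2.41 CPM with dox and 1.60 and 3.83 CPM without, from 32, 55, 49 and 96 reads. The conditions overlapped, and replicate 2 was above replicate 1 in each of them. Its log2 fold change was -0.49 (standard error 0.41, 95% interval -1.38 to 0.40, adjusted p-value 0.608 from edgeR). The ratio of +dox to −dox was 0.886 (0.549 to 1.41) within replicate 1, an interval that includes 1. Within replicate 2 it was 0.630 (0.443 to 0.886). The log2 fold change reversed to 0.25 without −dox replicate 2, the library with the most Cdx1 reads. It was -0.16 without +dox replicate 1. Both ratios lay below 1, but the sign of the fit depended on which library was left out, so no firm direction can be given. The interval for Cdx1 overlaps that for Cdx2, and a difference between the responses of these paralogues was not tested.

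Msgn1 (chr12:11215188-11215754, minus strand) is a bHLH factor needed for cells to leave the tail bud as presomitic mesoderm. It had 3 and 4 reads with dox and 13 and 16 without, or 0.133 and 0.175 CPM against 0.426 and 0.638 CPM. The +dox libraries did not overlap the −dox libraries, but all 4 counts are so small that a few reads would move them. The log2 fold change was -1.74 (standard error 0.69, 95% interval -3.25 to -0.23), and the p-value from edgeR was 0.0273 before and 0.204 after adjustment. The ratio within replicate 1 was 0.313 (0.0572 to 1.14), an interval that includes 1, and within replicate 2 it was 0.275 (0.0668 to 0.852). The annotated transcript of Msgn1 is its single coding exon of 564 nt and a stop codon, so reads on its untranslated ends were not counted.

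Mesp1 (chr7:86937127-86938476, minus strand), the bHLH factor of the first mesoderm to leave the streak, had 6 and 11 reads with dox and 27 and 10 without. In CPM these were 0.267 and 0.482 with dox and 0.884 and 0.399 without. Only −dox replicate 1 was high, and the conditions overlapped. The log2 fold change of -0.79 had a standard error of 0.60 (95% interval -2.08 to 0.51, adjusted p-value 0.553 from edgeR). Within replicate 1 the ratio was 0.302 (0.102 to 0.745) and within replicate 2 it was 1.21 (0.466 to 3.17), on opposite sides of 1. The log2 fold change was -0.09 without −dox replicate 1 and -1.28 without +dox replicate 2, and -0.44 without +dox replicate 1.

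Tbx6 (chr7:133924997-133929062, plus strand) encodes the T-box factor that commits cells to paraxial mesoderm. It had 24 and 23 reads with dox and 32 and 16 without, which gave 1.07 and 1.01 CPM against 1.05 and 0.638 CPM. One +dox library lay within the −dox range and the other just above it. The log2 fold change was 0.28 (standard error 0.42, 95% interval -0.63 to 1.20, adjusted p-value 0.754 from edgeR), and it was -0.02 without −dox replicate 2.

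Evx1 (chr6:52263492-52268372, plus strand), an even-skipped homeobox gene of the posterior streak beside the HoxA cluster, had the smallest standard error of the 9. It had 148 and 144 reads with dox and 208 and 189 without. Its levels were 6.57 and 6.31 CPM with dox and 6.81 and 7.53 CPM without. The +dox libraries were just below the −dox libraries, and the log2 fold change was -0.15 (standard error 0.21, 95% interval -0.62 to 0.31, adjusted p-value 0.735 from edgeR). The interval of Evx1 does not include the fitted value of Cdx2 or that of Msgn1. Of its counted exons, 73 nt (2.54%) also belong to the noncoding gene 5730457N03Rik on the other strand. Whether the counting used the strand is not given in the sources used here, so reads in those bases are uncertain.

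**Figure D2:**
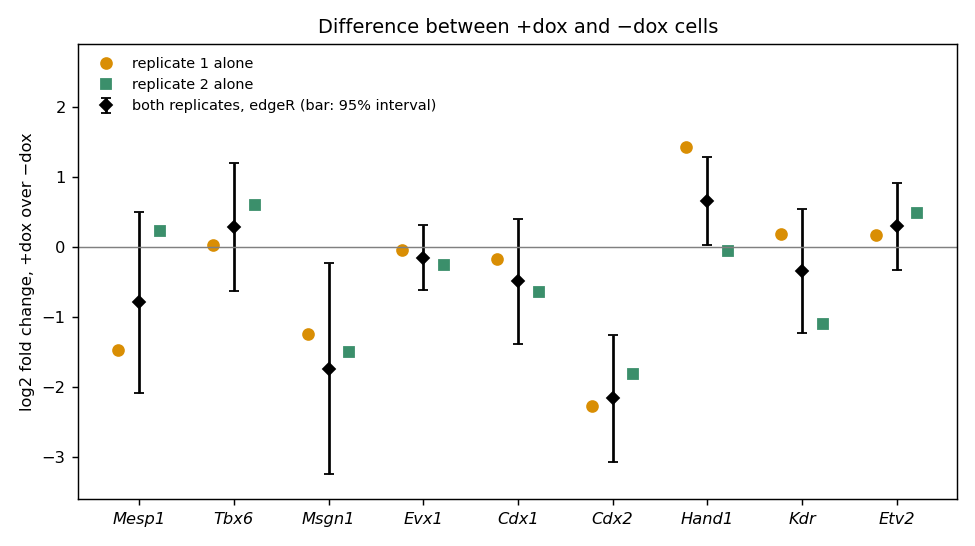
Log2 fold change of each gene between +dox and −dox cells: black diamonds are edgeR's fit to all 4 libraries with its 95% interval, orange circles replicate 1 alone and green squares replicate 2 alone, the latter 2 with a prior count of 2 that draws low counts toward 0. The interval of Cdx2 ends at -1.25, that of Msgn1 at -0.23 and that of Hand1 begins at 0.03, and the other 6 include 0.

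Hand1 (chr11:57642215-57645649, minus strand) is a bHLH factor needed for heart and extraembryonic mesoderm. It had 322 and 220 reads with dox and 161 and 251 without, or 14.3 and 9.63 CPM against 5.27 and 10.0 CPM. The +dox replicate 1 library was the highest and −dox replicate 1 the lowest, while the libraries of replicate 2 were nearly level. Within replicate 1 the ratio of +dox to −dox was 2.71 (2.24 to 3.30), and within replicate 2 it was 0.963 (0.800 to 1.16), so the intervals for counting error did not overlap. Over both replicates the log2 fold change was 0.65 ± 0.29 (standard error), and the p-value from edgeR was 0.0426 before and 0.258 after adjustment. Without +dox replicate 2 the adjusted p-value of edgeR was 0.00168 with a log2 fold change of 0.91, in a fit that took the spread from the −dox pair alone and called 4.43% of all genes (519 of 877 higher). Without +dox replicate 1, the log2 fold change was 0.34 and the gene was not called (adjusted p-value 0.478 from edgeR).

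The summed fibroblast markers were ordered like Hand1 at both ends, with +dox replicate 1 highest and −dox replicate 1 lowest. The largest part of this sum was Fn1 (means of 1841 CPM with dox and 1355 without). The order of the −dox replicates in the sum was not that of every marker, and Lox was among those with the other order. Over the markers averaging 1 CPM or more, the median log2 difference between +dox and −dox was 1.71 in replicate 1 and 0.28 in replicate 2, and 16 of the 20 genes were higher with dox in both. None of the 20 had 0 reads in every library. Hand2, the paralogue of Hand1, had 34 and 25 reads with dox and 13 and 22 without, a log2 fold change of 1.02 (adjusted p-value 0.267 from edgeR). The part of the feeder cells in the level of Hand1 was not tested.

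**Figure D3:**
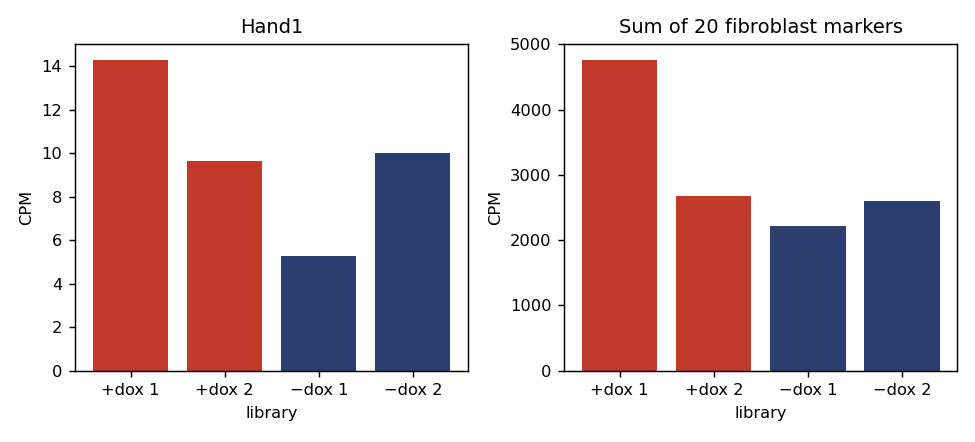
Hand1 (left) and the sum of 20 fibroblast marker genes (right) in each library, in CPM, with +dox in red and −dox in blue. Both are highest in +dox replicate 1 (14.3 and 4767 CPM) and lowest in −dox replicate 1 (5.27 and 2218 CPM). The largest part of the sum is Fn1.

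Kdr (chr5:76329299-76374453, minus strand), the VEGF receptor gene of blood and vessel precursors, had 47 and 19 reads with dox and 56 and 47 without. The levels were 2.09 and 0.832 CPM with dox and 1.83 and 1.87 CPM without, so that 1 library, +dox replicate 2, was low and the other 3 were alike. The log2 fold change was -0.34 (standard error 0.41, 95% interval -1.23 to 0.54, adjusted p-value 0.709 from edgeR), and it reversed to 0.17 without +dox replicate 2. Without +dox replicate 1 it was -1.15 (adjusted p-value 0.108 from edgeR). Of 10 endothelial markers, 7 reached a mean of 1 CPM, and their summed level was 141 and 154 CPM with dox and 146 and 150.1 CPM without. Most of that sum was Pecam1, which ES cells also express, while Cdh5, which defines endothelium, had 6, 4, 3 and 5 reads.

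Etv2 (chr7:31418635-31420871, minus strand), which acts upstream of Kdr in the blood and endothelial lineage, had 149 and 110 reads with dox and 179 and 86 without. In CPM this was 6.62 and 4.82 with dox and 5.86 and 3.43 without. Replicate 1 was above replicate 2 in both conditions, and the conditions overlapped. Its log2 fold change was 0.29 (standard error 0.29, 95% interval -0.33 to 0.92, adjusted p-value 0.667 from edgeR), and it was -0.04 without −dox replicate 2 and 0.04 without +dox replicate 1. The ratios within replicates 1 and 2 were 1.13 (0.903 to 1.41) and 1.41 (1.05 to 1.89).

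The ratio between replicates within each condition was then set against its counting error. In the −dox cells, the counting interval of the ratio of replicate 2 to replicate 1 excluded 1 for 4 of the 9 genes. Among 5296 genes with mean counts in the same range, it excluded 1 for 24.0%. The ratio was 2.38 (1.67 to 3.44) for Cdx1, 1.90 (1.55 to 2.33) for Hand1, 0.585 (0.447 to 0.760) for Etv2 and 0.451 (0.195 to 0.961) for Mesp1. In the +dox cells it excluded 1 for 4 genes again, beside 27.5% of the 5296, and these were Cdx1, Hand1, Etv2 and Kdr, the last with a ratio of 0.399 (0.221 to 0.692). Cdx2, Msgn1, Tbx6 and Evx1 had replicate ratios whose intervals included 1 in both conditions, and Cdx2, Msgn1 and Tbx6 had so few reads that these intervals were wide. All of these intervals cover counting error only, and intervals that exclude 1 were also found among the 5296 genes. Why they exclude 1 was not tested. The median absolute log2 difference between replicates was 0.57 over the 9 genes with dox and 0.65 without, while it was 0.35 and 0.28 over the 5300 genes with mean counts between those of Msgn1 and Hand1. Of those 5300 genes, edgeR called 30 (0.566%).

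**Figure D4:**
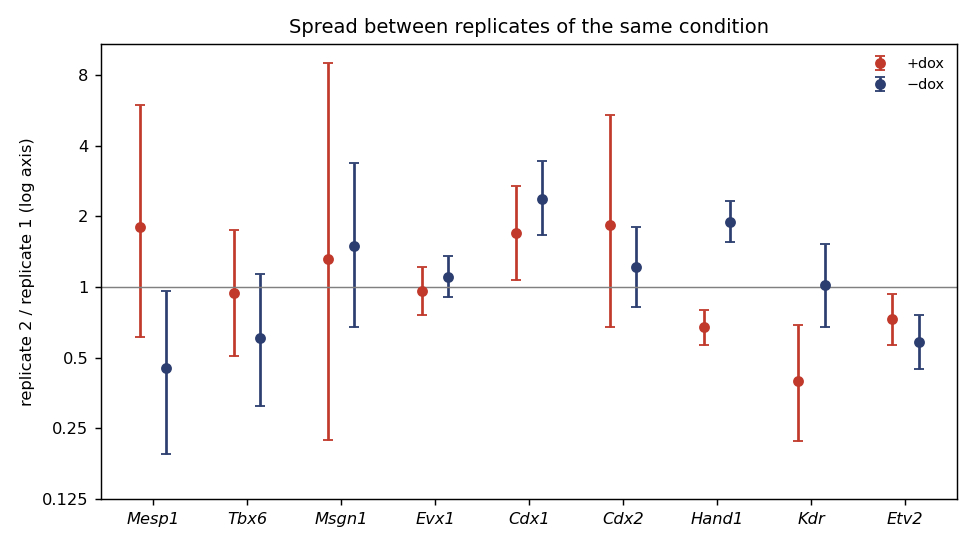
Ratio of replicate 2 to replicate 1 within the +dox cells (red) and within the −dox cells (blue) for each gene, on a log axis, with exact 95% intervals for counting error. Cdx1, Hand1 and Etv2 have intervals that exclude 1 in both conditions, and Hand1 lies below 1 with dox (0.674) and above 1 without (1.90).

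The profiles of the genes over the libraries were also compared. The log2 CPM of each gene was centred on its mean over the 4 libraries and averaged over the 6 genes averaging 1 CPM or more, and the Euclidean distance of each gene from that average was taken. The 6 genes themselves lay between 0.228 (Evx1) and 1.81 (Cdx2) from it. The closest of 13905 other genes were Zbtb26, Reps2, Tmx4, Brwd3 and H6pd, at distances of 0.0242 to 0.0369 over 4 libraries, all nearer than any of the 6. Their log2 fold changes ran from -0.38 to -0.31, and their adjusted p-values from edgeR from 0.203 to 0.594. All of these genes share the same 4 libraries, and the likeness is a description of them.

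The promoters of the genes were examined for motifs of factors known to act on the posterior mesoderm and for a core of the CTCF motif. RefSeq windows of 250 bases before the annotated start were held for 7 of the 9 genes, those other than Cdx1 and Hand1, and all 7 were found base for base in mm9. The T-box motif AGGTGTGA was in 0 of the 7 and in 1.12% of all 32851 promoter windows. The TCF/LEF motif ATCAAAG, through which Wnt signals act, was in 2 of the 7 (Mesp1 and Msgn1) and in 3.21% of all windows. The CDX motif TTTATNG was in 2 of the 7 (Tbx6 and Evx1) and in 9.81%, and a CTCF core motif of 12 letters was in 1 of the 7 (Tbx6) and in 2.07%. Both strands were searched, and a match is a run of letters and not a shown site. No match says only that these letters are not in this window.

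The windows of Cdx2 and Msgn1, the genes with the largest fold changes of the 9, and of Tbx6, the gene with 2 kinds of match, are shown, with matches to the motifs in capitals. Cdx2, with the largest difference of the 9, has no match. Msgn1, the other gene with a wide gap between conditions, has the TCF/LEF letters at position -203 from its annotated start. That start is its start codon, so the position is not counted from a start of transcription. The bases next to the start codon are left out. Tbx6, whose conditions overlapped, has the CTCF core at position -156 and the CDX letters at position -44, the latter within a run that resembles a TATA box. The sequences are those of the mouse reference genome, 5′ to 3′ on the strand of the gene, and not of the CAST/Ei and 129/Sv/Jae alleles of these cells.
Cdx2, chr5:148118826-148119075 in mm9, minus strand: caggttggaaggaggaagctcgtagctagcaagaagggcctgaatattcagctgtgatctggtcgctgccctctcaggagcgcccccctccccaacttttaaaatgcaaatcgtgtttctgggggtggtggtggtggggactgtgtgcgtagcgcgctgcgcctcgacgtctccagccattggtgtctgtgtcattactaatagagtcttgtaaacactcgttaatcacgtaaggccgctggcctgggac
Msgn1, chr12:11215855-11216004 in mm9, minus strand: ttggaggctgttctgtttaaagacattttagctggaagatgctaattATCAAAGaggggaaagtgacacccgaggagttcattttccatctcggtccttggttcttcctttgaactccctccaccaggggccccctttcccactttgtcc
Tbx6, chr7:133924747-133924996 in mm9, plus strand: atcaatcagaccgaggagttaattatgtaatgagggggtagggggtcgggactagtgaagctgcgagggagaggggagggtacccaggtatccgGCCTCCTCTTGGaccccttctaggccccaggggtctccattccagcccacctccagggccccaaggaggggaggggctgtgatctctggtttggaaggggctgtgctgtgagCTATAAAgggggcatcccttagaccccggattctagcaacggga

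Genes that act around the 9 regulators were taken from 4 lists. Of their 81 genes, 80 had at least 1 read and 62 reached a mean of 1 CPM. edgeR called 8 of them, all lower with dox, where 0.519% of all genes tested were called lower and 0.0798% higher. DESeq2 called 11, also all lower. Of the 62 genes averaging 1 CPM or more, 30 had a negative log2 fold change and 32 a positive one, with a median of 0.011. The lists were chosen with earlier results of these data known, so setting their calls beside those of all genes is not a test. Without −dox replicate 1 or −dox replicate 2 edgeR called 0 genes in the whole table (1753 and 1450 had an unadjusted p-value under 0.05), and without +dox replicate 1 or +dox replicate 2 it called 15 and 18 of the 81.

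The posterior growth zone list held the ligands and factors that keep the tail bud growing. Of its 19 genes edgeR called 4, all lower with dox, and 12 of the 16 averaging 1 CPM or more were not called. Cyp26a1, which degrades retinoic acid, fell from 12.1 ± 3.26 to 0.773 ± 0.226 CPM (SD, n = 2), with a log2 fold change of -3.96. T, which encodes Brachyury, fell by 3.13 on the log2 scale. Fgf8, a growth factor of the streak and tail bud, fell from 28.2 ± 1.51 to 5.43 ± 0.367 CPM (SD, n = 2). Sp5, a zinc finger target of Wnt, fell by 1.38 on the log2 scale. The adjusted p-values of these 4 genes from edgeR ran from 1.74e-05 to 0.00208. With the filterByExpr filter Sp5 was not called (0.0196 from edgeR), and with adjusted deviances 0 of the 4 were. The median log2 fold change of the 16 genes was -0.27, against -0.0011 for all genes of that level. Cdx4, the third caudal gene, had 48 and 61 reads with dox and 35 and 33 without. Its log2 fold change was 0.97 (adjusted p-value 0.130 from edgeR), of the opposite sign to Cdx2 but not called.

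The paraxial mesoderm list, which holds genes that act with or after Tbx6, Msgn1 and Mesp1, had 1 call among 20 genes. This was Nrarp, a feedback inhibitor of Notch, which fell by 1.27 on the log2 scale (adjusted p-value 0.00927 from edgeR). The call was lost with total counts in place of TMM (0.0113), with the filterByExpr filter (0.0448) and with adjusted deviances (0.0983), which leaves no call of edgeR on this list. The 16 genes averaging 1 CPM or more had a median of -0.01, with 8 values below 0 and 8 above. Mesp2, a segmentation gene that lies 17.1 kb from Mesp1, was not called, with a log2 fold change of 0.29.

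The lateral and cardiac mesoderm list, around Hand1, had 1 call among 20 genes in edgeR and 3 in DESeq2. Gata6, a zinc finger factor of heart and endoderm, fell by 2.16 on the log2 scale, and its adjusted p-value from edgeR was 0.00309. The 13 genes averaging 1 CPM or more had a median of -0.0023, with 7 values below 0 and 6 above. The blood and endothelial list, around Etv2 and Kdr, had 2 calls among 22 genes, Flt1 and Sox17, with log2 fold changes of -2.04 and -2.57. Flt1 encodes another VEGF receptor, and fell from 17.7 ± 2.96 to 4.29 ± 1.60 CPM (SD, n = 2), while the level of Kdr overlapped between conditions. Sox17, a factor of endothelium and of endoderm, was called by edgeR with an adjusted p-value of 0.000713. The median over the 17 genes of this list averaging 1 CPM or more was 0.14, of the opposite sign to both calls. Gata6, Flt1 and Sox17 were not called by edgeR with the filterByExpr filter (adjusted p-values of 0.0302, 0.0254 and 0.0130). The same held with adjusted deviances (0.0802, 0.0682 and 0.0554). Gata6 and Sox17 are also on the list of 12 endoderm markers, of which edgeR called 3, all lower with dox (the other was Foxa2, with a log2 fold change of -2.79). The summed level of the endoderm markers overlapped between the conditions, at 285 and 268 CPM with dox and 241 and 275 CPM without. Most of it was Lama1 (means of 145 CPM with dox and 122 without), Col4a1 (89.4 and 69.9) and Dab2 (28.5 and 24.5). It therefore says little about the rarer markers, such as Gata4 and Hnf4a (log2 fold changes of -1.06 and -1.74, not called). Over the markers averaging 1 CPM or more, the median log2 difference was -1.02 in replicate 1 and -1.08 in replicate 2. In both replicates 4 of the 12 were higher with dox, among them Apoa1, which had few reads. The part of other cell types in these calls was not tested.

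**Figure D5:**
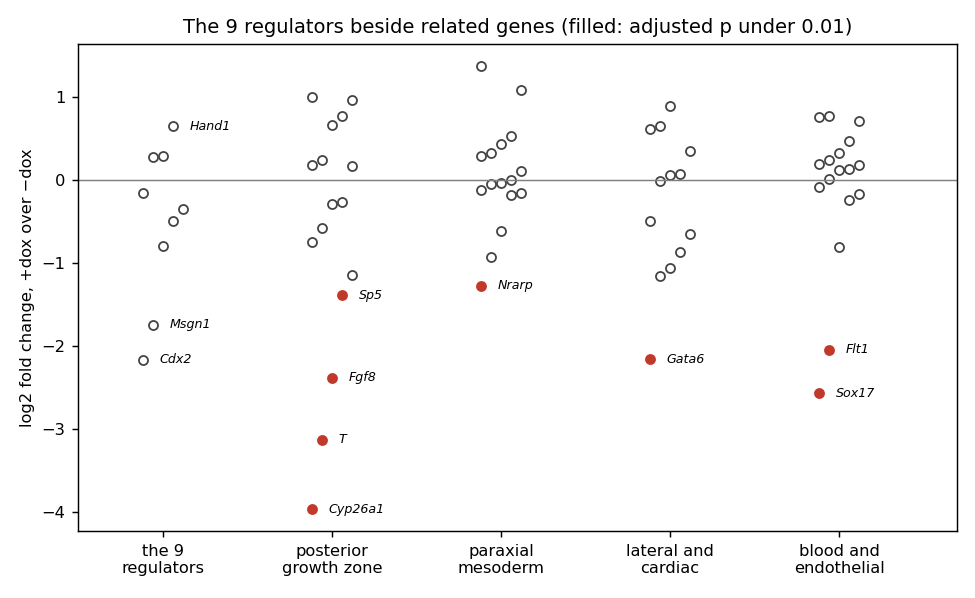
Log2 fold change between +dox and −dox cells of the 9 regulators and of 4 related lists (genes averaging 1 CPM or more), with filled red points for an adjusted p-value under 0.01 in edgeR. The 8 filled points lie between -3.96 and -1.27, and Cdx2 and Msgn1 (-2.16 and -1.74) lie among them without being called.

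The genes next to the 9 regulators on the chromosome were also compared, taking on each side the nearest gene averaging 1 CPM or more. edgeR called 0 of these 18 neighbours at an adjusted p-value under 0.01, with 4 at an unadjusted p-value under 0.05 (17.8% of all genes) and 1 called by DESeq2 (1.87% of all genes). Their log2 fold changes ran from -0.57 to 1.33, with a median of 0.09. The neighbours of Cdx2, Polr1d and D5Ertd605e, at 222 and 111 kb, had log2 fold changes of 0.03 and 0.30, and those of Msgn1, Kcns3 and Gen1, had -0.50 and 0.10. Kit, a receptor tyrosine kinase gene 277 kb from Kdr, was the gene called by DESeq2, with an adjusted p-value of 0.00126, and 0.0211 in edgeR. Its mean level in −dox cells was 97.7 ± 7.11 CPM and in +dox cells 65.6 ± 5.95 CPM (SD, n = 2 each). Pdgfrb, 8.95 kb from Cdx1 and one of the fibroblast markers above, had the highest value, with a log2 difference of 1.85 in replicate 1 and 0.28 in replicate 2. Ppp4c, which ends 320 bases from Tbx6 on the other strand and had 191 ± 12.0 CPM (SD, n = 2) with dox, did not differ beyond the test (log2 fold change 0.19, adjusted p-value 0.314 from edgeR).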

How the data were processed

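RNA-seq of 2 +dox and 2 −dox libraries was analysed. The deposited files give raw counts of reads per gene, which the authors made by trimming with cutadapt, aligning to mm9 with TopHat2, removing PCR duplicates and counting unique exonic reads with HOMER. Tool versions, and whether this directional library was counted by strand, are not given in the sources used here. The files of the replicates were joined by gene symbol, and 547 genes had different transcripts in them, of which 0 were among the 9. Genes with at least 1 read in 1 library were kept (20044), scaled by TMM and tested with edgeR 4.0.16 (quasi-likelihood test, R 4.3.3) without a replicate term. The threshold was a Benjamini-Hochberg adjusted p-value of 0.01. DESeq2 1.42.0 was an alternative, as were other filters, scalings and tests, a replicate term and leaving out each library. The code was tested on simulated data. Replicate-wise fold changes used a prior count of 2, and intervals of ratios are exact (Clopper-Pearson, 95%). They cover counting error only, as does the limit of 3 counts for a level of 0.

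The text names the 9 genes, up to 4 called genes with the largest fold change in each list, the nearest neighbours that averaged 1 CPM or more and the 5 genes closest in profile. Cdx4 and Hand2, relatives of the 9, were added after their values were seen. The 9 genes and the lists were chosen with earlier results of these data known. Promoter windows came from RefSeq (GRCm38.p6) and were matched to mm9. ChIP-seq and Hi-C samples were not analysed here.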

Additional observations from a re-analysis of the deposited data

How the results depend on the processing

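The count of calls over all genes, 120, depended on the test. It was 375 with DESeq2, 457 with edgeR's likelihood ratio test, 0 with edgeR's adjusted deviances (3254 genes at an unadjusted p-value under 0.05), 11 with the filterByExpr filter and 573 at a threshold of 0.05. Leaving out 1 library gave 0 to 992, with 0 when either −dox library was left out. Of the 9 genes, 1 (Cdx2) was called by the likelihood ratio test and at a threshold of 0.05, both with a log2 fold change of -2.16, and 0 to 2 when 1 library was left out. Of the related genes 8 were called, against 0 with adjusted deviances, 3 with filterByExpr and 0 to 18 with 1 library left out. Of the neighbours 0 were called, against 1 with DESeq2, with the likelihood ratio test and at a threshold of 0.05, and 0 to 2 with 1 library left out. Over the fits without 1 library, the log2 fold change ran from -2.66 to -1.80 for Cdx2, from 0.26 to 1.18 for Hand1, from -0.016 to 0.70 for Tbx6, from -0.996 to 0.25 for Cdx1, from -1.15 to 0.17 for Kdr, from -1.28 to -0.09 for Mesp1 and from -0.037 to 0.74 for Etv2. Tbx6, Cdx1 and Etv2 changed sign without −dox replicate 2, and Kdr without +dox replicate 2. The sources used here do not say whether samples with the same replicate number were grown or sequenced together, and the correlation of their deviations was 0.196. With the replicate block, edgeR called 786 genes, 1 of the 9 (Cdx2, -2.19, adjusted p-value 0.000981), 13 of the related genes and 2 neighbours, and DESeq2 called 264 genes, 9 of the related genes and 1 neighbour, with no adjusted p-value for Cdx2. The causes of these changes were not tested. A mean of under 50 reads limits what can be seen: of 7204 such genes, edgeR called 3.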
